A study of Homo sapiens with 24 samples.

Results

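JQ1 was compared with its solvent DMSO in MUTZ-5 cells, an established human line of B cell precursor acute lymphoblastic leukemia. The comparison rests on 6 of the 12 arrays of the study, taken by their labels: 3 arrays of cells given DMSO and 3 arrays of cells given 500 nM JQ1, each for 8 hours. Both groups grew in serum-supplemented RPMI medium, and the labels name no other agent and no genetic change. The other 6 arrays come from a second leukemia line, MHH-CALL4, treated in the same way. They enter the last comparison, and the spread behind every SE and p-value was estimated from all 12 arrays. All genes that the array names singly were described, 14232 in number. Whether the 3 samples of each group came from separate cultures is not in the labels, so p-values measure no more than the spread of these samples, and that spread may be technical. A single cell line was treated, and the errors do not cover differences between leukemias.

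Values are deposited RMA values on a log2 scale, on which a difference of 1 is a 2-fold change. A gene was called, and is said below to have risen or fallen, where limma's Benjamini-Hochberg adjusted p over all 14232 genes was under 0.05. RNA was measured in bulk and scaled to a common distribution on every array, so fewer cells of a type and less RNA per cell cannot be told apart, and a change in the total RNA of a cell would not be seen. The array medians of the 6 MUTZ-5 arrays lay between 8.49 and 8.57. DMSO replicate 3 stood apart from its group at one end of the main axis of residual variation, which held 58.1% of that variation (score 19.3). DMSO replicates 1 and 2 scored -7.03 and -12.3, the latter being the score furthest toward the other end. JQ1 replicate 3 stood apart from its group toward the other end (-11.0, against 7.20 and 3.81). Counts of list members that move by over 1.5 times without DMSO replicate 3 are given both ways, and extended values are given where they differ from the core value by as much. The labelled cell type was checked on B cell precursor genes: the transcription factor EBF1 lay at 13.13, 13.04 and 13.24 in the DMSO arrays, the lymphoid polymerase DNTT at 13.17, 13.28 and 13.25, and PAX5 at 11.95, 11.87 and 12.03. Across 13 measured markers of this stage the DMSO means ran from 7.46 to 13.2. In each called gene for which array values are given below, no JQ1 value overlapped a DMSO value.

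BET proteins are readers of acetylated histones that help RNA polymerase II leave promoters and enhancers. JQ1 occupies their bromodomains and displaces them from chromatin, and in lymphoid leukemia it is known as an agent that lowers transcription of MYC. MYC in turn binds E-box sequences and drives genes for ribosome assembly, amino acid supply and nucleotide synthesis. BET inhibition is also known to release P-TEFb, the kinase that frees paused polymerase, from its inhibitor HEXIM1.

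The comparison asks which genes respond to BET inhibition in this line. Under JQ1 1290 genes rose, 9.06% of all genes tested, and 1848 fell, 13.0% of them. The 3 JQ1 values lay entirely beyond the 3 DMSO values in 4633 genes (32.6%). Most changes were small: 1880 called genes changed by less than 0.5 log2 and 168 by less than 0.25. Calls were concentrated in genes with higher array values. Among the 3558 genes with the lowest mean 58 rose and 74 fell, and among the 3558 with the highest mean 557 rose and 760 fell. Of the 316 long noncoding RNA genes 7 rose and 14 fell. Falls made up 58.9% of all calls as deposited. The split depended on the scaling and on DMSO replicate 3: it was 1761 higher and 1656 lower after each array was centred on its median, and 1673 higher and 1502 lower without that array.

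**Figure D1:**
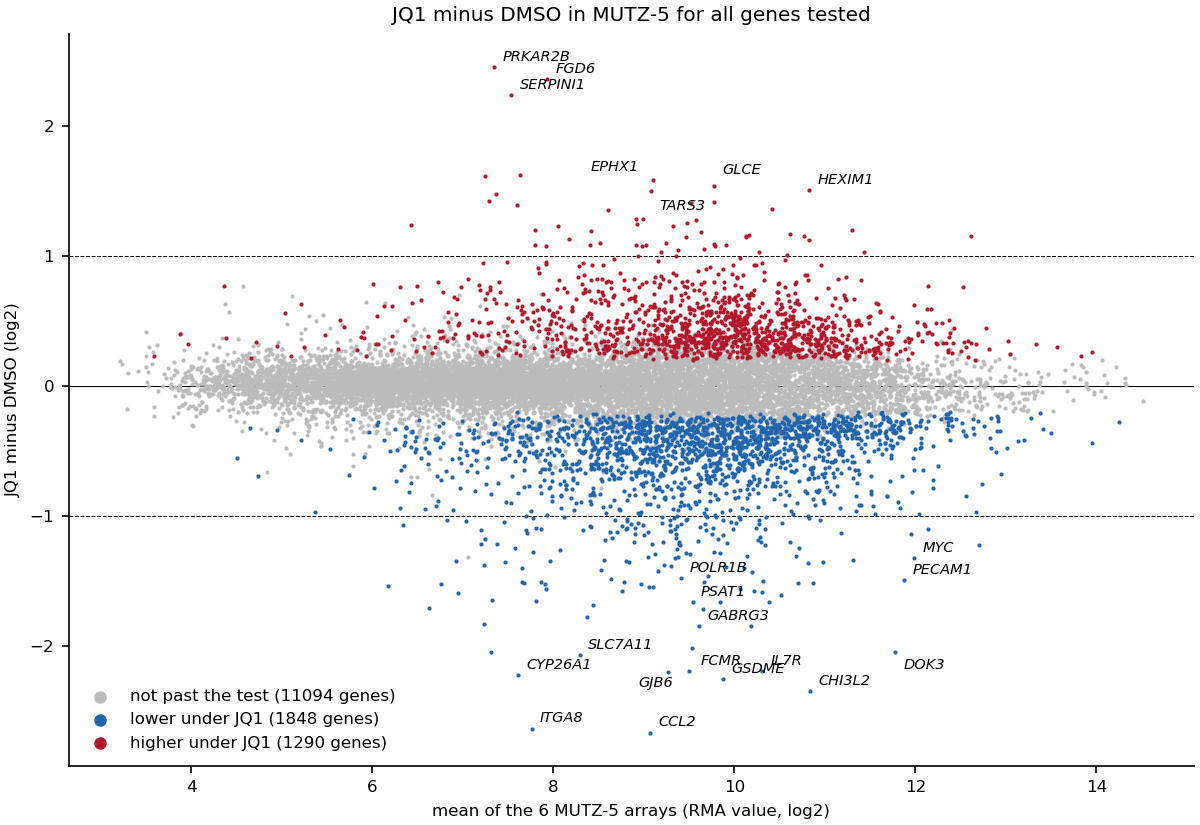
Each point is 1 of the 14232 genes tested in MUTZ-5, with the mean of the 6 arrays (RMA value, log2) on the horizontal axis and JQ1 minus DMSO (log2) on the vertical axis. Red points are the 1290 genes called higher, blue points the 1848 called lower and grey points the 11094 not past the test; dashed lines mark a 2-fold change, and CCL2 and ITGA8 lie further below 0 than PRKAR2B, the largest rise, lies above it.

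The genes that fell most had varied functions. CCL2, a chemokine that attracts monocytes, read 10.47, 10.42 and 10.32 under DMSO and 7.87, 7.46 and 7.90 under JQ1, and it fell by 2.66 ± 0.14 (SE, n = 3 per group, limma adjusted p = 4.6e-08). Its groups lay far apart, while the extended summary of the same scans gave a smaller difference, -1.74. DOK3, an adaptor that restrains signalling below immune receptors, read 12.79, 12.65 and 12.94 under DMSO and 10.79, 10.77 and 10.70 under JQ1. The JQ1 values lay close together, and it fell by 2.04 ± 0.080. Its extended summary gave the same difference, -2.04, and comes from the same scans, so it is no separate measurement. FCMR, the receptor for the constant part of IgM, fell by 2.02, and CCDC26, a long noncoding RNA, fell by 2.20. Both connexin genes of the group fell, GJB6 by 2.19 and GJB2 by 1.84, as did the GABA receptor subunit GABRG3 by 1.85 and the cell cycle adaptor CABLES1 by 1.78 (-1.12 with extended summaries). CHI3L2, a chitinase-like secreted protein, fell by 2.35 at the core level and differed by -1.39 at the extended level.

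The largest rises were in genes that read low under DMSO. PRKAR2B, a regulatory subunit of protein kinase A, read 5.91, 5.97 and 6.47 under DMSO and 8.68, 8.63 and 8.41 under JQ1. The guanine exchange factor FGD6 and the protease inhibitor SERPINI1 were placed alike, with DMSO values under 7 on every array and rises of 2.36 and 2.24. Such values lie in the lower part of the scale, and the files give no background level, so the sizes of these 3 rises are not exact. Rises from higher levels were seen in EPHX1, an enzyme that opens epoxides (8.37, 8.09 and 8.48 under DMSO; 9.91, 9.98 and 9.81 under JQ1), and in GLCE, which edits heparan sulfate (9.02, 8.76 and 9.23 under DMSO; 10.57, 10.57 and 10.48 under JQ1). The rise of EPHX1 was 1.59 ± 0.10 and that of GLCE 1.54 ± 0.10 (limma adjusted p = 2.6e-07 and 3.1e-07), and EPHX1 measured 0.91 with extended summaries. TARS3, a threonyl-tRNA synthetase paralog, rose by 1.50, the kinase TESK2 by 1.42, the peroxisomal fatty acid transporter ABCD2 by 1.41 and vinculin, VCL, which anchors actin at adhesions, by 1.28. POPDC1, DNAJC1, USP53 and PPP1R13B rose by between 1.25 and 1.36.

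**Figure D2:**
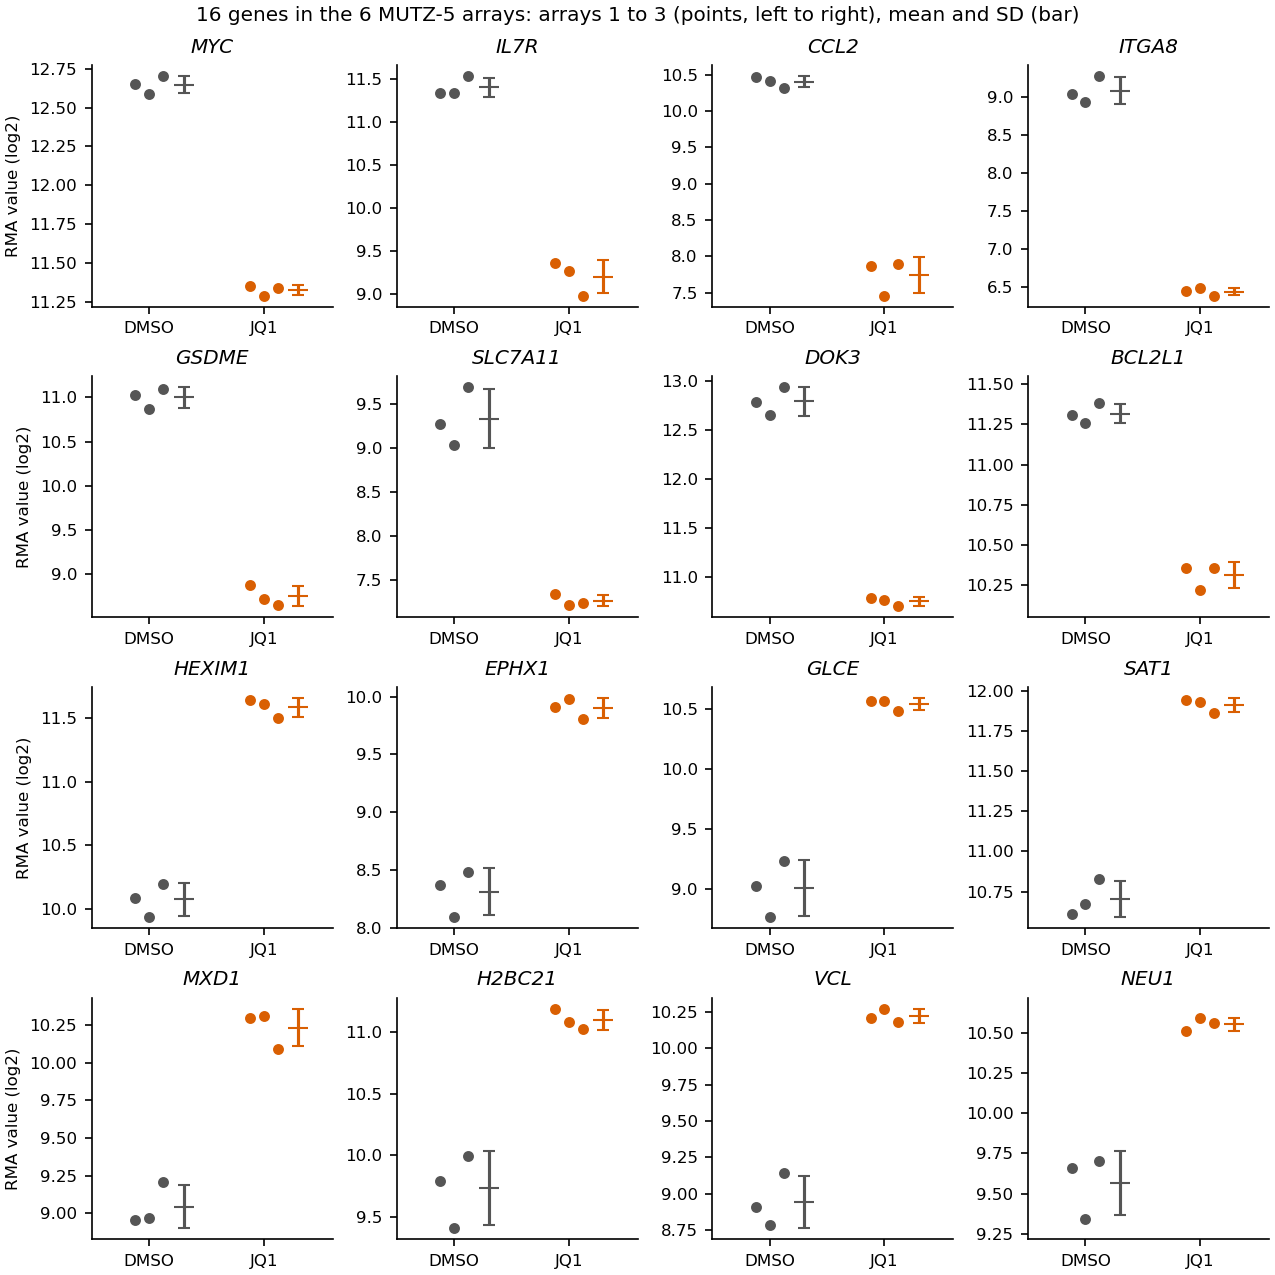
RMA values (log2) of 16 genes in the 6 MUTZ-5 arrays, with points for arrays 1 to 3 of each group and bars for the mean and SD (n = 3); each panel has its own axis, which does not start at 0. In every panel the groups are separate, and in GLCE, H2BC21 and SLC7A11 the DMSO arrays spread more widely than the JQ1 arrays.

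MYC fell in MUTZ-5 by 1.32 ± 0.068 (limma adjusted p = 5.3e-08), with JQ1 values between 11.29 and 11.35 against DMSO values of at least 12.59. Of 13 measured genes of the MYC network 4 fell and 3 rose, where 13.0% and 9.06% of all genes did. TFAP4, a MYC-induced E-box factor, fell by 1.12 from values of 9.83, 9.78 and 9.96. The MXD genes encode partners of MAX that repress E-box genes and oppose MYC, and MXD1, MXD4 and MXD3 rose by 1.19, 0.53 and 0.34. MXD1 read 8.96, 8.97 and 9.21 under DMSO and 10.30, 10.31 and 10.09 under JQ1. The lower members besides MYC and TFAP4 were MNT and MLX (each -0.28), while MAX itself measured 0.08 and did not pass. MNT and MLX lost their calls under 2 of the 15 alternatives each.

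Genes that build ribosomes in the nucleolus fell together. Of 31 measured nucleolar assembly factors 27 fell and none rose, with a median of -0.77 against 0.0084 over all genes, and the same number fell without DMSO replicate 3. POLR1B, the second largest subunit of RNA polymerase I, read 10.10, 9.995 and 10.36 under DMSO and 8.84, 8.76 and 8.44 under JQ1 and fell by 1.48 ± 0.13 (limma adjusted p = 4.0e-06). RRS1, which brings the 5S particle to the large subunit, fell by 1.29, UTP20 of the small subunit processome by 1.14, WDR74 by 1.09 and MRTO4 of the stalk by 1.06 (-0.64 with extended summaries). PES1 and WDR12, partners in one large-subunit complex, fell by 0.84 and 0.87, and PES1 measured -0.46 with extended summaries. BYSL, UTP23, FBL and NPM1 did not pass, with values of -0.26, -0.22, -0.18 and 0.25. NPM1 had a DMSO mean of 4.775, in the lower part of the scale, so a change in it may not have been seen.

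The E-box CACGTG, the palindrome that MYC with MAX binds, was counted in promoters of 300 bases, from 250 before to 50 after the start of a gene, in RefSeq sequence (GRCh38.p14). One promoter was held for 8199 of the genes tested, and 9.10% of these contained the E-box, which reads the same on both strands. The share was 15.1% in 998 genes that fell, 9.46% in 772 that rose and 8.12% in 6429 not past the test. Split by level, genes that fell had the largest share in both upper groups: in the 3558 genes with the highest mean they were 13.1%, 10.3% and 10.7%, and in the 3558 genes next below them 19.3%, 8.56% and 10.3%. In the 3558 genes with the lowest mean the order was another, 11.8% of 34 genes that fell, 12.1% of 33 that rose and 5.45% of those not past the test. Of 20 nucleolar factors with a promoter 11 held the E-box. These shares are descriptions, and a match is not a binding site. Sequences of 4 nucleolar genes are shown from 180 bases before to 20 after the start, 5′ to 3′ on the strand of the gene, with the E-box in capitals. They are the 4 largest falls among nucleolar genes whose promoter holds the E-box, so its presence follows from the choice. It lies within 20 bases of the start in all 4. UTP20 lies at chr12:101279925-101280124 on the plus strand and MRTO4 at chr1:19251625-19251824 on the plus strand. PES1 lies at chr22:30591891-30592090 and NOL6 at chr9:33473905-33474104, both on the minus strand.
UTP20: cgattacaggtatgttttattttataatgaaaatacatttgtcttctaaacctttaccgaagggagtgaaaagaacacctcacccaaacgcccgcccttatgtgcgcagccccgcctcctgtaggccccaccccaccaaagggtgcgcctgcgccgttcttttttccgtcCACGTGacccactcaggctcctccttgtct
MRTO4: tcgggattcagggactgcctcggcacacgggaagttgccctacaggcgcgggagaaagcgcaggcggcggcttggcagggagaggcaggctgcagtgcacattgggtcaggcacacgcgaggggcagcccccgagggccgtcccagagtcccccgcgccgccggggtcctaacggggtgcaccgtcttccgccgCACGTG
PES1: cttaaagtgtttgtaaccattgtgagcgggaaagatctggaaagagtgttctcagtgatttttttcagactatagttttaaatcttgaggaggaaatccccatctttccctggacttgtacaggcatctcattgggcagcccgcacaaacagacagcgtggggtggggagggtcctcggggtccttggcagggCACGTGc
NOL6: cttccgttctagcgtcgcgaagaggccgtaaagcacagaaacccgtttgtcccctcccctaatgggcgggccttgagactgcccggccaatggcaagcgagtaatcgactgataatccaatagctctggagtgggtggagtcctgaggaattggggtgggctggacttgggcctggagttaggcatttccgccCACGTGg
UTP20, MRTO4, PES1 and NOL6 fell by 1.14, 1.06, 0.84 and 0.81. NOP16, NIP7 and UTP15, whose promoters hold no CACGTG in this window, measured -0.98, -0.96 (-0.62 with extended summaries) and -1.005, all called, so falls of like size occurred with and without these letters. FBL and BYSL hold the E-box and did not pass the test.

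The polymerases that transcribe ribosomal RNA and transfer RNA were divided. Of 7 genes grouped under RNA polymerase I 5 fell and none rose, with POLR1A at -0.74 and the initiation factor UBTF at -0.43. That group includes POLR1C (-0.43, called) and POLR1D (not past the test), subunits that RNA polymerase III shares. Of 10 genes specific to RNA polymerase III 2 fell, POLR3D (-0.70) and POLR3E (-0.45), and 3 rose, POLR3GL (0.44), POLR3B (0.32) and GTF3C1 (0.23). All 3 of the rises lost their call under at least 2 alternatives. These 2 groups, like the other divisions by role below, were drawn after values were seen. Of 26 mitochondrial ribosomal proteins 16 fell and none rose (median -0.34), led by MRPL24 at -0.91 (-0.53 with extended summaries), MRPS34 at -0.63 and MRPL19 at -0.58. Of 11 measured proteins of the cytosolic ribosome 2 fell, RPS14 (-0.71, and -0.36 with extended summaries) and RPL37A (-0.54), and the other 9 lay between -0.23 and 0.02. The 2 falls were 18.2% of this group, against 13.0% of all genes. Probe sets of cytosolic ribosomal proteins can also read their many processed copies. Of 12 translation factors 7 fell and 1 rose; without DMSO replicate 3 the number that fell was 4. The EIF4E-binding protein EIF4EBP1 fell by 0.55 and its relative EIF4EBP2 rose by 0.35.

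Enzymes that charge transfer RNA were counted by compartment, as read from the gene symbol alone. Genes that serve both compartments, such as GARS1 (-0.28) and KARS1 (-0.30), both called, were therefore counted with the cytosol. Of 18 synthetases of the cytosol 13 fell (median -0.43), whereas of 11 synthetases of mitochondria 1 fell, NARS2 at -0.29 (median -0.14); none rose in either group. TARS3, a paralog of the threonyl enzyme that was not in the list, rose by 1.50. The difference between compartments was not tested. IARS1, the isoleucyl enzyme, read 12.22, 12.24 and 12.29 under DMSO and 11.42, 11.37 and 11.29 under JQ1, and fell by 0.89 ± 0.072, with no overlap. VARS1, LARS1 and YARS1 fell by 0.86, 0.82 and 0.81. The amino acid response element TGATGCAA, which ATF4 with a C/EBP partner binds, was present on one strand or the other in 0.76% of the 8199 promoters and in 4 of 18 synthetase promoters. IARS1, shown in the same window as above (chr9:92293678-92293877, minus strand), was chosen as the largest fall among synthetases whose promoter holds the element. There the element lies on the opposite strand, so that the capitals read TTGCATCA.
IARS1: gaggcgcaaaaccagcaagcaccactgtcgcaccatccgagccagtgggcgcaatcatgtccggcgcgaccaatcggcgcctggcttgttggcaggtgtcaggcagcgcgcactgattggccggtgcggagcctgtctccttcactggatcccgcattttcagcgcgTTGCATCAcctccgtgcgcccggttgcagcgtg
The asparagine synthetase ASNS, a well-known ATF4 target, differed by 0.013 and ATF4 by 0.094, and neither passed. Among the 23 ATF4 and stress regulators described below 8 fell and 1 rose, and a role of ATF4 was not tested.

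Amino acid supply held several of the deeper falls. Of 21 genes for amino acid transport and synthesis 12 fell and 1 rose. SLC7A11, the exchanger that brings in cystine, read 9.27, 9.03 and 9.69 under DMSO and 7.33, 7.21 and 7.23 under JQ1. It fell by 2.07 ± 0.15 (limma adjusted p = 5.1e-07), with more spread among DMSO arrays than among JQ1 arrays. The glutamine transporter SLC38A5 fell by 1.71, the leucine transporter SLC7A5 by 1.35, the arginine transporter SLC7A1 by 1.31 and SLC3A2, the shared heavy chain, by 0.98. PSAT1, the middle enzyme of serine synthesis, fell by 1.66, while PHGDH, which opens that pathway, measured 0.10 and did not pass. Of 23 ATF4 and stress regulators 8 fell and 1 rose, with the glutathione-degrading enzyme CHAC1 at -1.09 and SESN2 at 0.36.

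**Figure D3:**
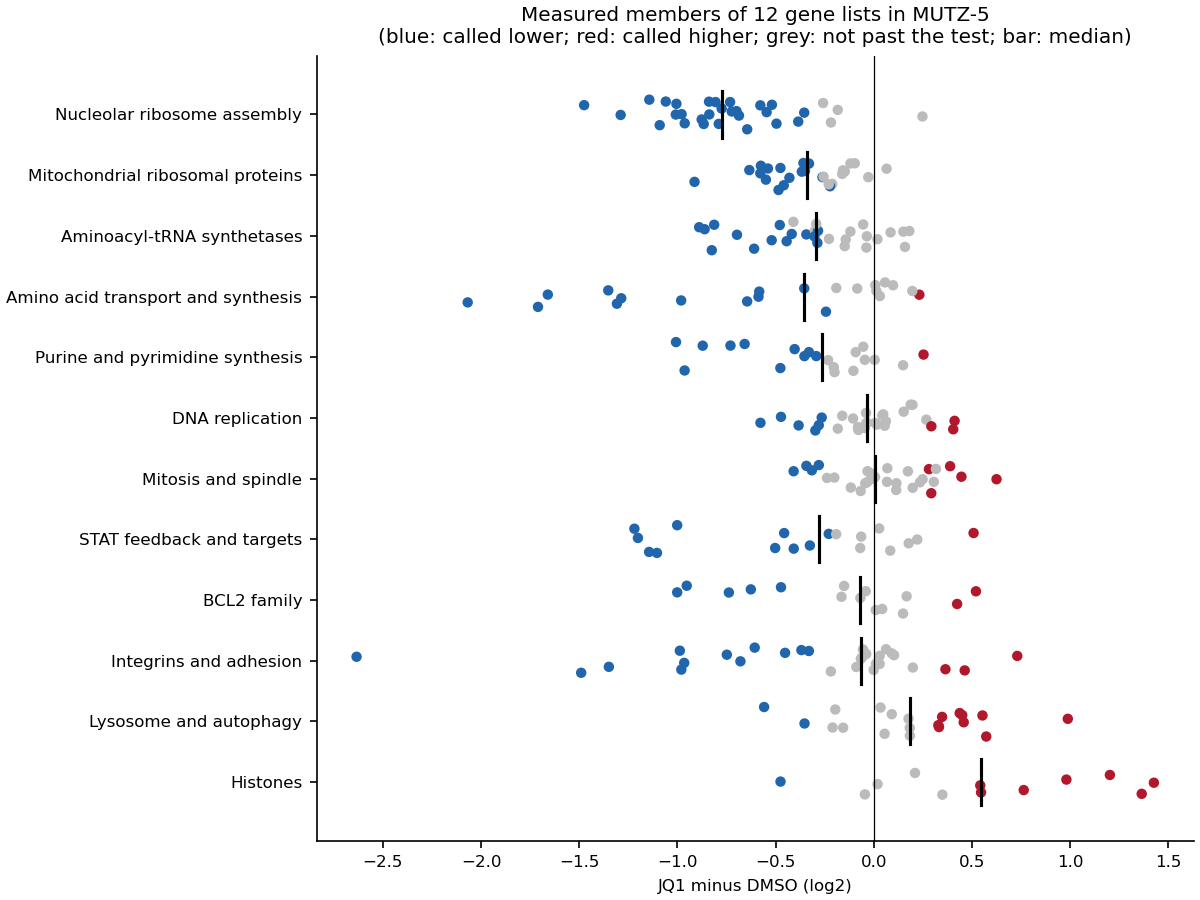
JQ1 minus DMSO (log2) of each measured member of 12 gene lists in MUTZ-5, blue where called lower, red where called higher and grey where not past the test, with a black bar at the list median. Nucleolar factors lie almost wholly to the left of 0, histones mostly to the right, and mitosis genes on both sides.

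Nucleotide and lipid genes fell in parts of each pathway, and polyamine genes changed in both directions. Of 10 purine synthesis genes 5 fell and 1 rose, and of 6 pyrimidine genes 4 fell. PFAS, ATIC and GART, which build the purine ring, fell by 1.01, 0.87 and 0.73, CTPS2, which makes CTP, fell by 0.96, and IMPDH2 rose by 0.25. All 7 measured genes of fatty acid synthesis and desaturation fell (median -0.57), including ELOVL6 at -1.21 (-0.70 with extended summaries), ACACA at -0.71 and FASN at -0.64; ACLY, at -0.28, kept its call in 9 of 15 alternatives and lost it without DMSO replicate 3. Of 13 genes of sterol synthesis and uptake 2 fell and none rose. In the whole list of 23 lipid genes 9 fell and none rose, and without DMSO replicate 3 7 fell and 2 rose. In the sterol group the squalene epoxidase SQLE measured 0.03 and INSIG1 0.28, and neither passed. Of 8 polyamine genes 3 rose and 1 fell. SRM, which makes spermidine, fell by 0.94 from 12.29, 12.22 and 12.39, and SAT1, which acetylates polyamines for export, rose by 1.20, from 10.61, 10.67 and 10.83 to 11.94, 11.93 and 11.86. The spermine oxidase SMOX rose by 0.72, while AMD1, which supplies synthesis, measured -0.34 and PAOX -0.06, and neither passed.

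Glucose and mitochondrial genes were mixed. Of 21 glycolytic genes 8 fell, led by hexokinase HK2 (-0.78), PFKM (-0.56) and PDK1 (-0.49), and 4 rose, led by ALDOC (0.83) and the other hexokinase, HK1 (0.52). Of 22 respiratory chain and citrate cycle genes 8 fell and 2 rose. The mitochondrial coactivator PPRC1 read 10.47, 10.31 and 10.55 under DMSO and between 8.90 and 9.05 under JQ1 and fell by 1.46, and the dehydrogenase OGDH rose by 0.82. Of 7 subunits of the cytosolic chaperonin, which folds actin and tubulin, 5 fell and none rose, with CCT5 lowest at -0.64. Of 18 proteasome genes 7 fell and 1 rose, and 4 fell without DMSO replicate 3.

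**Figure D4:**
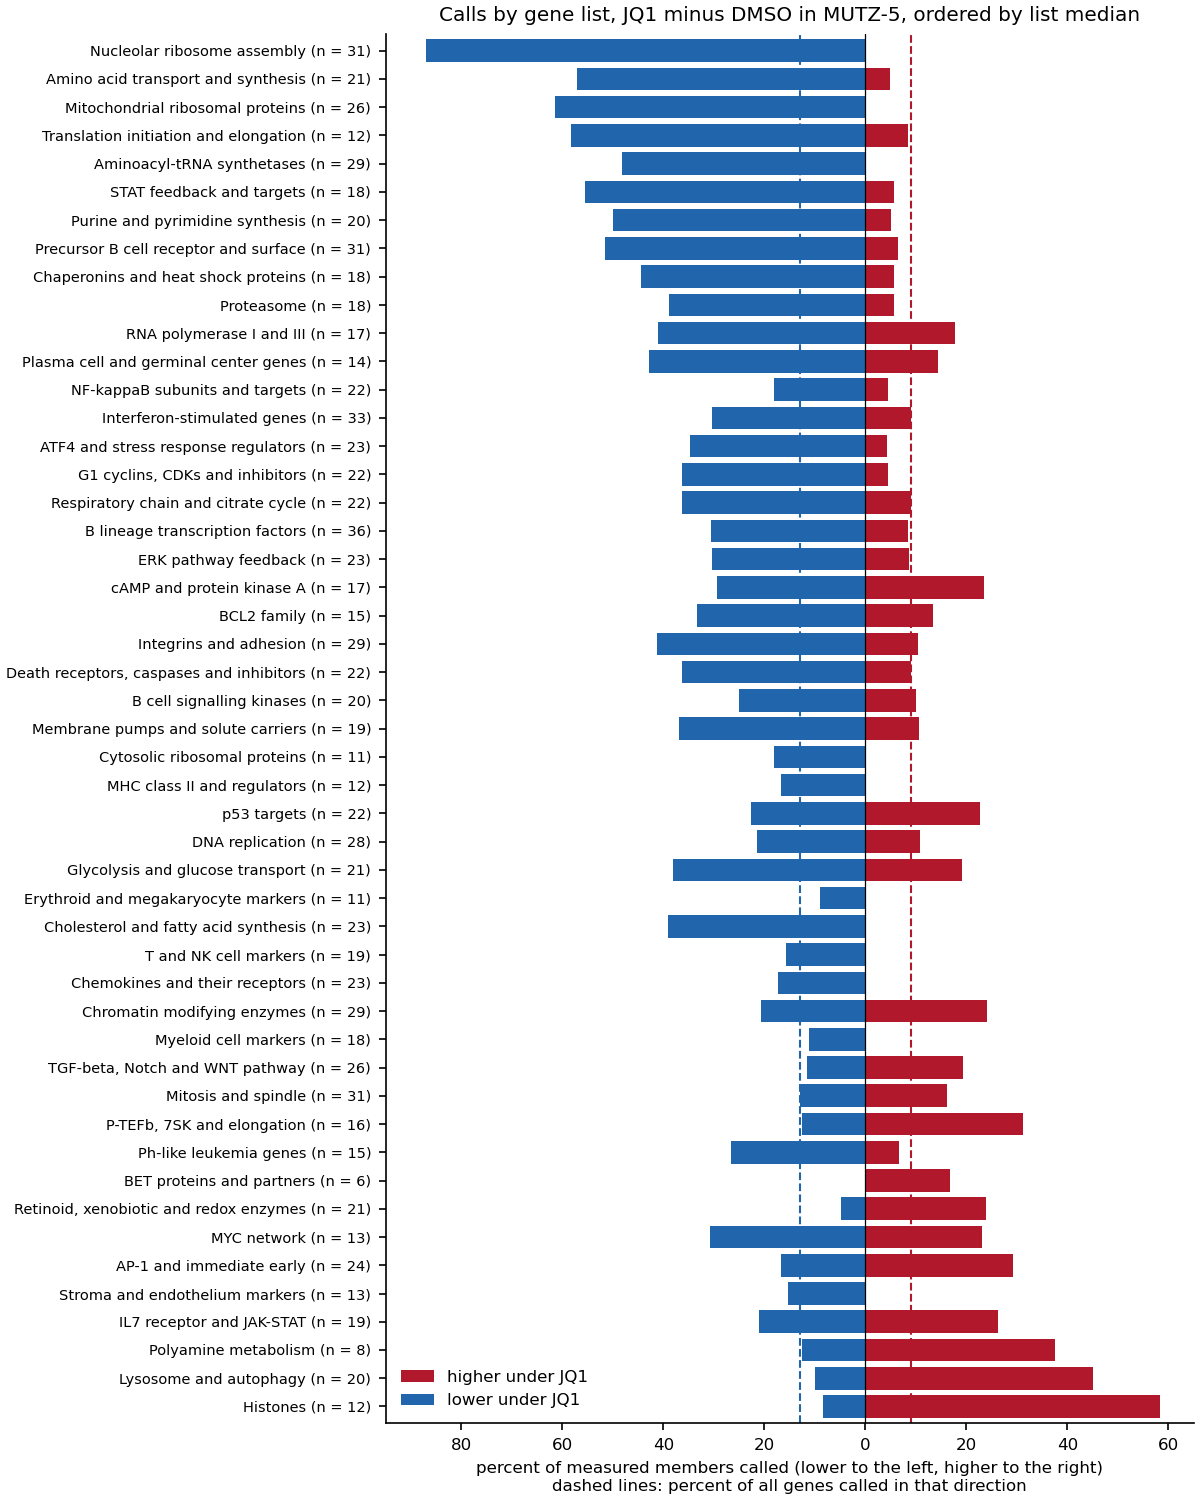
Percent of measured members called lower (blue, to the left) and higher (red, to the right) in each of 49 gene lists in MUTZ-5, ordered by list median; dashed lines mark the 13.0% of all genes called lower and the 9.06% called higher. The nucleolar list has the largest share of falls and the histone list the largest share of rises.

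Interleukin-7 signals support the survival of precursor B cells through a receptor, JAK1 and JAK3, and STAT5. The receptor chain IL7R fell by 2.19 ± 0.12 (limma adjusted p = 5.5e-08), while the kinases below it did not fall. JAK1 read 11.19, 11.15 and 11.45 under DMSO and 11.98, 11.95 and 11.76 under JQ1 and rose by 0.63. JAK2 and JAK3 measured 0.16 and 0.17 and did not pass. STAT3 rose by 0.58, whereas STAT6 fell. Phosphatases in this list were split: PTPN6 fell by 1.16, from values between 10.81 and 10.90 to values between 9.65 and 9.73, and PTPN1 rose by 0.38. PTPRC also fell, and PTPN2 and PTPN11 did not pass. In all, 4 of 19 receptor and JAK-STAT genes fell and 5 rose.

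Known targets and feedback genes of STAT factors in general fell more often than they rose, 10 of 18 against 1. STAT5A and STAT5B themselves were not among the measured genes. CISH, a feedback inhibitor that STAT5 induces, read 10.45, 10.27 and 10.63 under DMSO and 9.35, 9.26 and 9.30 under JQ1 and fell by 1.14 ± 0.087. Cyclin D2, CCND2, fell by 1.22, lymphotoxin LTA by 1.20, IKZF4 by 1.10 and SOCS2 by 0.50. BCL6, which STAT5 is known to repress, rose by 0.51. SOCS3 and PIM2 measured 0.03 and 0.22 and did not pass. The STAT motif TTCNNNGAA was present in 2 of 8 promoters of this list, in 7.72% of promoters of genes that fell, in 5.05% of those of genes that rose and in 7.33% of all promoters. Feedback genes of the ERK cascade, which report on MAP kinase signalling, were lower in 7 of 23 cases and higher in 2, with the ERK phosphatase DUSP6 at -1.21, EGR3 at -0.66 and DUSP10 at 0.60.

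Genes of the B cell surface fell in number. Of 31 measured genes of the precursor B cell receptor and surface 16 fell and 2 rose (median -0.26). CD72, a co-receptor that restrains signalling, read 10.43, 10.32 and 10.52 under DMSO and 8.95, 8.84 and 8.95 under JQ1, and fell by 1.51 (-0.98 with extended summaries). The surrogate light chain gene VPREB1 fell by 1.09 and VPREB3 by 1.01, the progenitor antigen CD34 by 0.95, the receptor chain CD79A by 0.64 and CD22 by 0.35. Genes that did not pass included MME (-0.14), MS4A1 (0.034) and DNTT (0.031), and the linker BLNK rose by 0.34. Among 20 kinases and signalling enzymes below the receptor 5 fell and 2 rose. LCK fell by 1.38, from 9.91, 9.90 and 10.18 to 8.69, 8.44 and 8.71, BTK fell by 0.70, SYK by 0.55 and BLK by 0.48, and FYN, of the same family as LCK, rose by 0.64.

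Transcription factors of the B lineage changed in both directions. Of 36 measured factors 11 fell (30.6%) and 3 rose, and 5 rose without DMSO replicate 3. IKZF3, or Aiolos, fell by 1.01, from 10.19, 10.15 and 10.27 to 9.26, 9.19 and 9.14, BCL11A fell by 0.73 and ERG by 0.52. SPI1 and LEF1 fell by 0.77 and 0.76 at the core level, but measured -0.19 and -0.018 at the extended level and lost their calls there; the cause was not tested. EBF1 and PAX5 measured -0.13 and 0.073 and did not pass. FOXO1, which turns on recombination genes in precursor B cells, rose by 0.36. Of 14 plasma cell and germinal center genes 6 fell and 2 rose, with the receptor TNFRSF17 at -1.53, the folding factor FKBP11 at -0.92 and PRDM1, which drives plasma cell fate, at -0.88. Of 12 MHC class II genes 2 fell (1 without DMSO replicate 3) and none rose, and HLA-DRA measured -0.08. The 2 falls were 16.7% of these genes, near the 13.0% of all genes. The Ph-like group of leukemias is defined by an expression pattern, and 4 of 15 measured genes of it fell, MUC4 (-1.29), IFITM1 (-1.10), PDGFRB (-0.66) and SPATS2L (-0.54), while TP53INP1 rose by 0.51.

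Survival and death genes changed on both sides. Of 15 BCL2 family genes 5 fell and 2 rose. The survival gene BCL2L1 fell by 1.001, from 11.31, 11.26 and 11.38 to 10.36, 10.22 and 10.36, and BCL2 fell by 0.74. Genes that promote death fell as well, PMAIP1 by 0.95, BID by 0.63 and BAX by 0.47, while BCL2L11, the gene of BIM, rose by 0.52 and BNIP3L by 0.42. All 4 measured death receptor genes fell, with FAS at -1.34 (-0.84 with extended summaries) and TNFRSF10A at -0.50. FAS read 7.60, 7.37 and 7.82 under DMSO and 6.35, 6.19 and 6.21 under JQ1. GSDME, the pore-forming gasdermin that caspase-3 cleaves, read 11.03, 10.87 and 11.10 under DMSO and 8.88, 8.72 and 8.65 under JQ1, and fell by 2.25 (-1.57 with extended summaries). CFLAR, the inhibitor of caspase-8, fell by 0.55, and CASP9 and APAF1, partners in the apoptosome, rose by 0.67 and 0.44. Of 22 p53 target genes 5 fell and 5 rose, and MDM2 measured -0.05.

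Cell cycle genes were counted by phase. Of 22 G1 regulators 8 fell and 1 rose, CDK2 (0.32); without DMSO replicate 3 the numbers were 5 and 3. CCND2 read 13.31, 13.24 and 13.39 under DMSO and 12.08, 12.07 and 12.13 under JQ1, and CCND1 fell by 0.90 (-0.52 with extended summaries), E2F5 by 0.82 and CDK6 by 0.47. The inhibitors CDKN1B and CDKN2A measured 0.24 and 0.03 and did not pass. Of 28 replication genes 6 fell (21.4%) and 3 rose (10.7%), against 13.0% and 9.06% of all genes. The falls were led by POLD2 (-0.58, and -0.36 with extended summaries) and POLE2 (-0.47). Without DMSO replicate 3 the numbers that fell and rose were 5 and 5. Of 31 mitosis and spindle genes 5 rose (16.1%) and 4 fell (12.9%), where 9.06% and 13.0% of all genes did. Among the called members the phosphatase CDC25C measured 0.63, PTTG1 0.45 and UBE2C -0.41. Without DMSO replicate 3 the numbers that rose and fell were 6 and 2. MKI67 measured 0.07 and did not pass.

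Adhesion genes held some of the deepest falls. Of 29 measured integrin and adhesion genes 12 fell and 3 rose. ITGA8 read 9.04, 8.93 and 9.27 under DMSO and 6.46, 6.49 and 6.39 under JQ1 and fell by 2.63 ± 0.10. PECAM1, which joins leukocytes to endothelium, fell by 1.49, from values of at least 12.58 to values of at most 11.19. Both chains of the leukocyte integrin LFA-1 fell, ITGAL by 1.35 and ITGB2 by 0.99, and so did its ligands ICAM2 (-0.97) and ICAM3 (-0.45). ITGB1 and ITGB3 rose by 0.37 and 0.73, and the fibronectin receptor chain ITGA5 fell by 0.61. Besides CCL2, 3 of 23 chemokine and receptor genes fell, including CCR2 (-0.69) and CCR7 (-0.48), none rose, and CXCR4, which holds precursor B cells in marrow, measured 0.05. With CCL2 the falls made up 17.4% of this list, against 13.0% of all genes.

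Inflammatory and interferon genes are read against 13.0% lower and 9.06% higher of all genes. Of 33 interferon-stimulated genes 10 fell (30.3%), led by TRIM22 (-1.13), IFITM1 and OAS3 (-1.07), and 3 rose, led by IRF7 (0.80) and IFI6 (0.68). Of 22 NF-kappaB genes 4 fell, including TNF at -0.66, and REL alone rose, by 0.36. AP-1 and immediate early genes rose in 7 of 24 cases (29.2%) and fell in 4, with RHOB at 0.45, KLF10 at 0.38, JUN at 0.35 and BATF3 at -0.51.

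Rises were found in genes of transcription and chromatin. HEXIM1 read 10.09, 9.94 and 10.20 under DMSO and 11.64, 11.61 and 11.50 under JQ1, a rise of 1.51 ± 0.081 (limma adjusted p = 6.3e-08), whereas its paralog HEXIM2 fell by 0.58 (-0.37 with extended summaries). Of 16 genes of P-TEFb and elongation 5 rose and 2 fell. Others that rose were AFF1 (0.39), AFF4 (0.33) and MLLT3 (0.56, and 0.28 with extended summaries), which read low under DMSO with a mean of 4.75, and NELFCD of the pausing complex fell by 0.67. Among the targets of JQ1 itself BRD2 rose by 0.37 and BRD3 measured 0.061 (95% interval -0.09 to 0.21, not past the test). Of 12 histone genes 7 rose and 1 fell (median 0.54). H2BC21 read 9.79, 9.41 and 9.999 under DMSO and 11.19, 11.08 and 11.03 under JQ1 and rose by 1.37 ± 0.13, H2BC5 rose by 1.43, H2BC11 by 1.20 (0.76 with extended summaries) and H2AJ by 0.98, while MACROH2A1 fell by 0.47. Because histone genes are near copies, reads of these probe sets can mix several of them. Among 29 chromatin enzymes 7 rose and 6 fell, with KAT2B at 0.68 and SIRT1 at 0.64 against DNMT3A at -0.74 and KAT2A at -0.71, so that the paralogs KAT2A and KAT2B moved apart.

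Lysosome genes rose in 9 of 20 cases and fell in 2 (median 0.18). The sialidase NEU1 read 9.66, 9.34 and 9.70 under DMSO and 10.51, 10.59 and 10.56 under JQ1, a rise of 0.99, the proteases CTSK and CTSB rose by 0.57 and 0.55, and CTSS, the protease of antigen processing, fell by 0.56. TFEB, a master factor of this programme, fell by 0.35. Of 17 cAMP and protein kinase A genes 4 rose and 5 fell: besides PRKAR2B the catalytic gene PRKACA rose by 0.54, and the phosphodiesterases PDE4B, PDE4D and PDE4A, which break down cAMP, fell by 1.10, 0.40 and 0.32. Of 21 retinoid, xenobiotic and redox genes 5 rose and 1 fell. CYP26A1, which degrades retinoic acid, fell by 2.22 and RDH10, which makes its precursor, rose by 0.76. Of 26 genes of the TGF-beta, Notch and WNT pathways 5 rose, with the receptor BMPR2 at 0.67, and 3 fell, with the WNT inhibitor DKK1 at -1.08. Rises made up 19.2% and falls 11.5% of this list, against 9.06% and 13.0% of all genes. Without DMSO replicate 3 the number that fell was 1. Of 19 membrane pumps and carriers 7 fell, among them ABCC4 (-0.93) and the folate carrier SLC19A1 (-0.89), and 2 rose, with SLC12A2 at 0.77.

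Markers of other cell types fell at shares between 9.09% and 15.8% per list, near the 13.0% of all genes. Of 19 T and NK cell markers 3 fell, including ZAP70 (-1.12) and NKG7 (-0.64), and the T cell receptor gene CD3D measured 0.11. Of 18 myeloid markers VCAN (-1.58) and MPO (-0.48) fell, of 11 erythroid and megakaryocyte markers TFRC (-0.36), and of 13 stroma and endothelium markers PECAM1 and FN1 (-0.90). None rose in these lists. The mean of the T and NK list over its genes lay between 6.92 and 7.15 in DMSO arrays and between 6.92 and 6.99 in JQ1 arrays. For the myeloid list the ranges were 7.45 to 7.61 and 7.41 to 7.51, for the erythroid list 7.39 to 7.71 and 7.50 to 7.62, and for the stroma list 7.27 to 7.43 and 7.18 to 7.27. Whether other cells take part in any of these falls was not tested. No detection calls come with the values, and no marker can be called absent.

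The effect of JQ1 in MUTZ-5 was set against that in MHH-CALL4 by the difference of both effects in the same limma fit. The difference was called in 218 genes, 1.53% of those tested, and in 360 without MUTZ-5 DMSO replicate 3. In 135 of the 218 the MUTZ-5 effect was the more positive and in 83 the more negative. In both lines 2324 genes were called in the same direction and 21 in opposite directions. ITGA8 showed the most negative difference, -2.43 (adjusted p = 3.8e-06), with -2.63 in MUTZ-5 and -0.21 in MHH-CALL4. The falls of CYP26A1, GJB6 and GABRG3 were also deeper in MUTZ-5, with differences of -2.13, -1.98 and -1.79, and none of these 3 was called in MHH-CALL4. Under DMSO these 4 genes read at most 7.10 on every MHH-CALL4 array (ITGA8 5.87 to 5.99, CYP26A1 6.20 to 6.36, GJB6 6.69 to 7.10 and GABRG3 5.97 to 6.64) and at least 8.55 on every MUTZ-5 array. They had little room to fall in MHH-CALL4, so a difference in response and a difference in starting level cannot be told apart for them. DOK3 fell by 2.04 in MUTZ-5 and 1.28 in MHH-CALL4 (difference -0.76, adjusted p = 0.0030) and DUSP6 by 1.21 and 0.37 (difference -0.84, adjusted p = 0.016). CD34 fell in MUTZ-5 and measured 0.041 in MHH-CALL4 (difference -0.995, adjusted p = 0.011).

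Other falls were smaller in MUTZ-5, among them those of MYC, BCL2, GSDME and PECAM1. MYC fell by 1.32 in MUTZ-5 and fell by 2.05 in MHH-CALL4, a difference of 0.73 (adjusted p = 0.0011), and BCL2 fell by 0.74 and by 1.59, a difference of 0.86 (adjusted p = 5.0e-04). GSDME and PECAM1 differed in the same direction by 1.18 and 1.23. None of the 31 nucleolar factors had a called difference, and their median was -0.77 in MUTZ-5 and -0.86 in MHH-CALL4. Among B lineage factors IKZF1, or Ikaros, rose by 0.28 in MUTZ-5 and fell by 0.98 in MHH-CALL4 (difference 1.26, adjusted p = 4.5e-05). The rise in MUTZ-5 held in 10 of 15 alternatives. The histone deacetylase HDAC9 rose by 0.41 and fell by 0.38 (difference 0.79, adjusted p = 0.0085), and KHDRBS3, an RNA-binding protein that was singled out after its values were seen, rose by 0.61 and fell by 0.77 (difference 1.38, adjusted p = 2.0e-04). Of 29 adhesion genes 5 had a called difference. Among them were ITGA6, at -0.98 in MUTZ-5 (difference -0.76, limma adjusted p = 0.027), and ITGB3, at 0.73 in MUTZ-5 (difference 0.80, limma adjusted p = 0.0053).

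**Figure D5:**
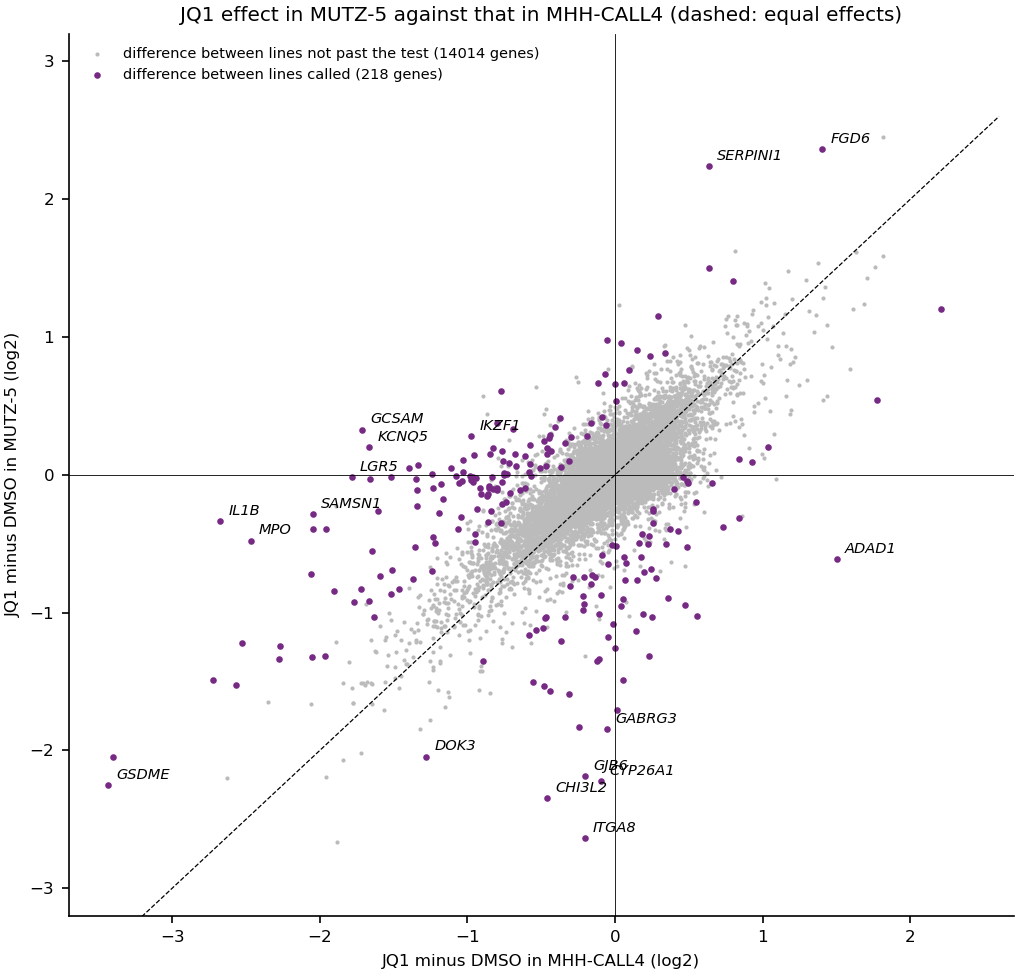
JQ1 minus DMSO (log2) in MHH-CALL4 on the horizontal axis and in MUTZ-5 on the vertical axis for all genes tested; purple points are the 218 genes with a called difference between lines and the dashed line marks equal effects. ITGA8, CYP26A1, GJB6 and GABRG3 lie far below 0 in MUTZ-5 and near 0 in MHH-CALL4, while IL1B, MPO and GCSAM lie far to the left and near 0 in MUTZ-5.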

How the data were processed

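Human exon arrays were read for 4 groups of 3 samples (MUTZ-5 and MHH-CALL4, DMSO and JQ1). Per the submitters' design text and processing notes, the authors made the deposited log2 values by RMA in Affymetrix Expression Console, at a core and an extended gene level from the same scans. Its version, the build behind the annotation and which arrays were normalized with each other are not given in the sources used here, and no detection calls were used. The core level holds 22011 transcript clusters and the extended level 133672. Of the core clusters 14432 carry 1 symbol in the platform annotation, and 2408 with several and 5171 unlisted ones were left out. Of these, 14404 matched a RefSeq gene ID, which changed 0 symbols. For 197 genes with several clusters the cluster with the highest mean was used, leaving 14232 genes. In 1591 genes core and extended values are identical (within 0.0001).

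From these values a linear model (limma 3.58.1, R 4.3.3; lmFit, then eBayes; two-sided tests) with a mean for each group was fitted across the 12 core arrays, with JQ1 minus DMSO in MUTZ-5 and the difference of this effect between lines as contrasts, called at an adjusted p under 0.05. The number of arrays limits the precision. The code was tested on simulated data. Same-numbered JQ1 and DMSO samples of MUTZ-5 did not deviate together (correlations -0.17, -0.21 and -0.44), so numbers were not taken as pairs.

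The 49 gene lists, the members and the tests were chosen with earlier results of these data known. Named genes are MYC, IL7R, BRD2, BRD3 and HEXIM1; the 15 largest rises and falls among called genes without overlap whose higher mean reached the median of all genes; per list, at most 5 called members by size, or the 2 largest where no member passed; 6 genes at each end of the line difference; and further list members, with their values. Alternatives were another choice of arrays, a replicate block, median centring, cyclic loess, extended summaries, a filter on low values, another variance model, the mean over clusters and leaving out each MUTZ-5 array; leaving out both number 3 arrays was added after the data were seen. Promoters were searched on both strands for 5 motifs: the E-box, the amino acid response element and the STAT motif of the report, and 2 more. The AP-1 motif TGACTCA was in 3.54% of all promoters and 3.51% of those of genes that fell. The ETS motif GGAAGT was in 25.8% and 30.6% of them.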

Additional observations from a re-analysis of the deposited data

Results flagged for a closer look

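The JQ1 effect differed between the lines, by the test of the difference in the fit to all 12 arrays, in the 6 genes at each end. All values here are log2 and each difference is MUTZ-5 minus MHH-CALL4. The differences furthest below 0 were -2.43 for ITGA8, -2.13 for CYP26A1, -2.115 for ADAD1, -1.98 for GJB6, -1.89 for CHI3L2 and -1.79 for GABRG3. In 5 of these genes the fall in MUTZ-5 was called, and the effect in MHH-CALL4 lay between -0.46 and -0.055. The same 5 genes read between 5.87 and 7.435 in MHH-CALL4 under DMSO and between 8.55 and 12.13 in MUTZ-5, so response and starting level cannot be told apart for them. ADAD1, a gene known from the testis, is the exception: it measured -0.61 in MUTZ-5 (limma adjusted p = 0.18) and rose by 1.50 in MHH-CALL4, and its MUTZ-5 values of 6.17, 6.64 and 5.47 under DMSO overlap those of 5.18, 6.09 and 5.16 under JQ1.

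The differences furthest above 0 were 2.34 for the cytokine gene IL1B, 2.04 for GCSAM, a germinal center adaptor, 1.99 for the neutrophil enzyme MPO, 1.87 for the potassium channel KCNQ5, 1.77 for the WNT co-receptor LGR5 and 1.76 for the adaptor SAMSN1. In MHH-CALL4 these genes fell by between 1.66 and 2.67. In MUTZ-5 MPO fell by 0.48 and GCSAM rose by 0.33 (limma adjusted p = 0.022), a call that held in 9 of 15 alternatives, and the other 4 measured -0.34, 0.20, -0.016 and -0.29 and did not pass. The MUTZ-5 values of LGR5 and SAMSN1 lay below 6 on every array, in the lower part of the scale.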

How the results depend on the processing

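Of 239 genes named by rule 233 were called, and 207 of the 239 kept direction and side of the threshold under every one of the 15 alternatives that tested them. The counts of genes called higher and lower in MUTZ-5 stayed within 1.5 times of 1290 and 1848 under all 15. With a replicate block 1031 genes were called higher and 1567 lower, and 2569 of the 3138 called genes were kept. With both number 3 arrays left out 1783 were higher and 1353 lower, and without DMSO replicate 2 900 and 1930. Changes of at least 2-fold numbered 144 with extended summaries, against 230. The difference between lines was called in 218 genes, in 136 with a replicate block, in 157 to 360 when 1 array was left out (360 without MUTZ-5 DMSO replicate 3) and in 401 without both number 3 arrays. The cause of these shifts was not tested. After median centring the median of cholesterol and fatty acid genes was 0.014 against -0.031, and that of glycolysis 0.0115 against -0.034. Without both number 3 arrays the median of death receptors and caspases was 0.023 against -0.061. Medians of other lists near 0 changed sign as well. Without DMSO replicate 3 that of DNA replication was 0.020 against -0.036, of p53 targets 0.035 against -0.038 and of the MYC network -0.058 against 0.039. Calls of EIF4E, CD86, RAG1, GCSAM and IKZF1 were lost in 5 or more alternatives. No background level comes with the files, so small changes of low genes cannot be told from none.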
